A study of Homo sapiens with 4 samples.

Results

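The 30 genes described here encode core components of the RAS-MAPK and PI3K-AKT-mTOR pathways, from the adaptors that bind activated receptors to the kinases at the end of each cascade. They were taken from a fixed list of symbols and matched to the symbol in the deposited gene tables, where they made up 31 of 60675 gene rows. The additional row is a second entry for PIK3R3 with 0 counts in all 4 libraries. All 30 genes passed the filter on low counts and were tested, among 16538 tested genes in all.

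Gene expression was measured by RNA sequencing of poly(A) RNA in MM134, an estrogen receptor positive cell line from an invasive lobular breast carcinoma. HER2 L755S cells carried the receptor HER2 with a substitution in its kinase domain, and HER2 WT cells carried wild-type HER2. Cells of both lines were grown to 70% confluence and then deprived of estrogen for 7 days in phenol red free medium with 5% charcoal-stripped serum, so no library shows the pathways with estrogen present. Each line gave 2 libraries, HER2 L755S 1 and 2 and HER2 WT 1 and 2, with 27423247 to 31088422 expected counts each. The sources used here do not give how the HER2 forms were introduced, whether a line is 1 clone, or whether its libraries came from separate cultures, so the p-values reflect no more than library-to-library spread, part or all of which may be technical.

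The libraries had the markers of their labelled tissue: all 10 luminal breast markers, such as GATA3 and KRT19, reached at least 1 CPM (for the markers, counts scaled to a common library total only) in every library, while 0 of 6 basal and 0 of 6 leukocyte markers did. Of the fibroblast and endothelium markers, COL1A1 did, at 116 and 54.7 CPM in HER2 L755S 1 and 2 and 105 and 51.4 CPM in HER2 WT 1 and 2. COL1A2 and COL3A1 were above 1 CPM in the number 2 libraries only, and CDH5 and PECAM1 were at 0 throughout. ERBB2, the gene of HER2, stood at 2443 and 1203 CPM in HER2 L755S 1 and 2, against 1934 and 1936 CPM in HER2 WT 1 and 2. The CPM of ERBB2 and of all genes below were also scaled with TMM, a normalization factor for each library. Gene counts do not show which HER2 allele was transcribed. Mitochondrial genes took 4.03% and 13.5% of the counts in HER2 L755S 1 and 2, against 4.395% and 8.83% in HER2 WT 1 and 2, so this share was higher in both number 2 libraries.

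As background, activated receptor tyrosine kinases such as HER2 with its partners bind the adaptors SHC1 and GRB2. GRB2 brings the exchange factors SOS1 and SOS2 to the membrane, where they load RAS proteins with GTP, and RAS then activates RAF, MEK and ERK kinases in turn. The same receptors recruit PI3-kinase through its regulatory subunits, and its lipid product activates PDPK1 and AKT, which release the mTOR complex mTORC1 from inhibition by TSC1 and TSC2. Activity of both pathways is set largely by phosphorylation and GTP loading of these proteins, which transcript counts do not measure.

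No component passed the test of the difference between the lines, and most values were small. With p-values from the edgeR quasi-likelihood test adjusted over all tested genes (Benjamini-Hochberg), HER2 L755S cells had 0 of 30 called higher and 0 called lower than HER2 WT cells, where 0.738% and 0.949% of all tested genes were. DESeq2 and limma-voom, like edgeR here without a term for the library number, also called 0 of 30, and 1 gene, PIK3R1, had an unadjusted p under 0.05, as did 10.5% of all tested genes. The log2 fold changes of the 30 genes (HER2 L755S over HER2 WT) ran from -0.75 to 0.91 with a median of -0.07, against 0.00 for all tested genes. Their median size was 0.13, against 0.29 over all tested genes and 0.22 over the 10109 tested genes with a mean of at least 10 CPM. In 14 genes the log2 fold change was positive and in 16 it was negative.

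The absence of calls limits the differences only loosely. The 95% intervals of the log2 fold changes reached a median of 0.75 to either side, and for 17 of 30 genes the interval lay within 1 (a 2-fold change) in both directions. In simulated counts for this comparison the test recovered 0% of 2-fold and 70% of 4-fold changes, so a 2-fold difference in a component could go uncalled. The changed genes there were drawn from all tested genes, whose median CPM 29 of 30 components exceeded. Recovery at the levels of the components was not simulated. In CPM, 2 of 30 genes, PIK3R1 and GRB2, were higher in both HER2 L755S libraries than in both HER2 WT libraries, where 16.9% of all tested genes were, and 1 of 30, MTOR, was lower in both, where 19.3% were. Differences within each number are called pair 1, for the number 1 libraries, and pair 2, for the number 2 libraries, each as HER2 L755S over HER2 WT on the scale of log2 CPM. They had the same sign in 21 of 30 genes, and their median was 0.07 in pair 1 and -0.20 in pair 2.

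**Figure D1:**
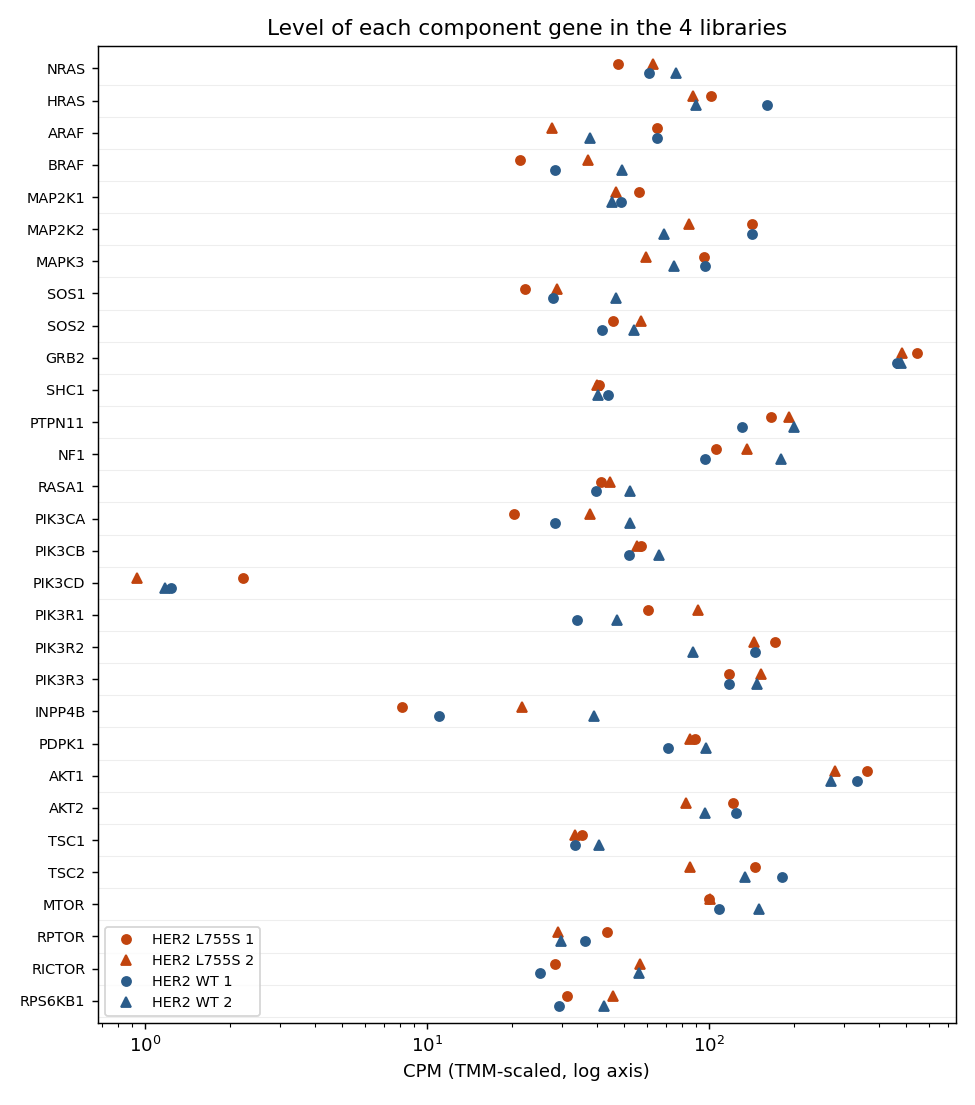
CPM of the 30 component genes (log axis) in HER2 L755S 1 and 2 (orange) and HER2 WT 1 and 2 (blue), with circles for number 1 and triangles for number 2. Only PIK3R1 and GRB2 have both orange points to the right of both blue points, only MTOR has both to the left, and PIK3CD is the lowest gene, at 0.935 to 2.22 CPM.

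**Figure D2:**
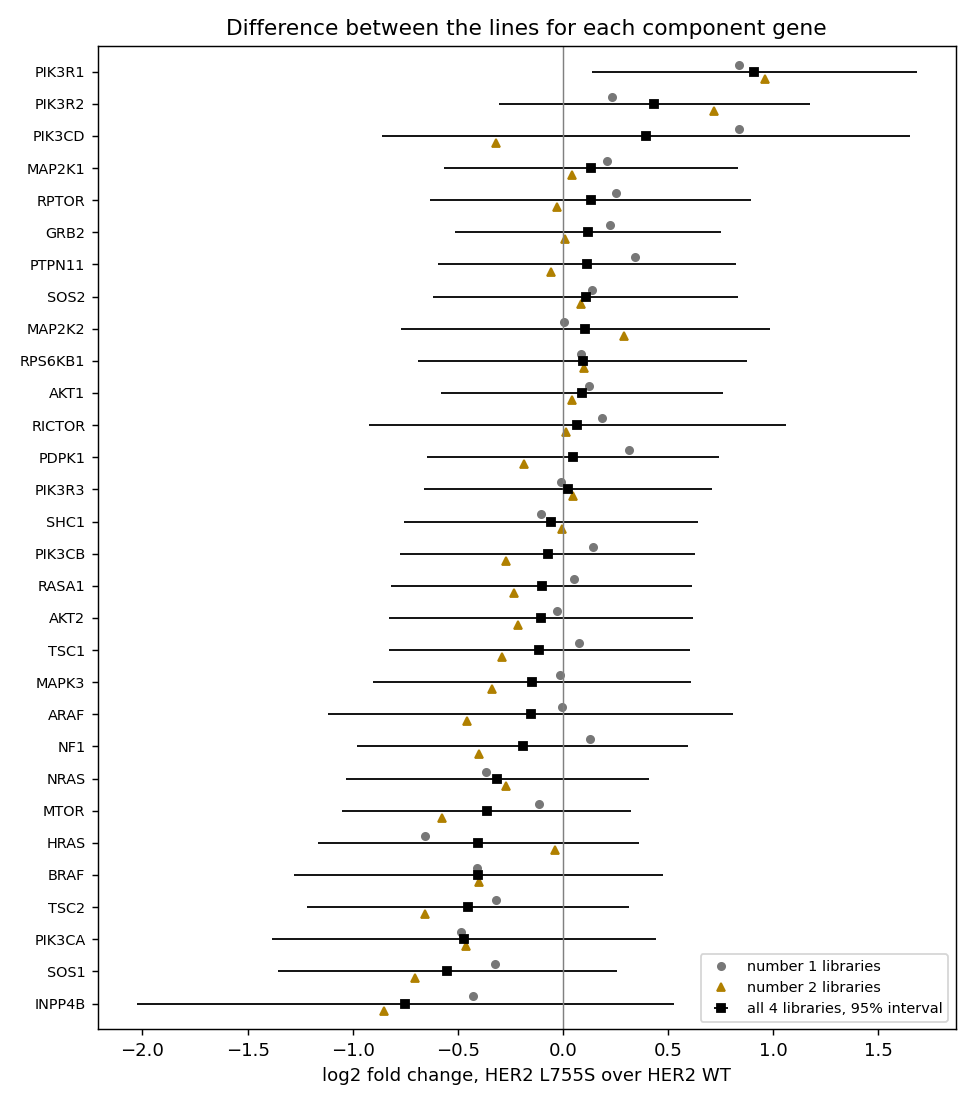
Log2 fold change of each gene, HER2 L755S over HER2 WT, from all 4 libraries with its 95% interval (black), and the difference within number 1 (grey circles) and number 2 (brown triangles). The values run from 0.91 for PIK3R1 to -0.75 for INPP4B, and the interval of PIK3R1 alone lies on one side of 0, before adjustment for the number of genes.

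PIK3R1 had the largest value of the 30 genes. It encodes the p85-alpha regulatory subunit of PI3-kinase and, from internal start sites, the shorter p55-alpha and p50-alpha subunits, which lack the amino-terminal part of p85-alpha. The mean transcript length given below bears on which start was used only in part. The windows from 250 bases before to 50 bases after the 4 starts that RefSeq lists for PIK3R1 (GRCh38.p14) are shown, in the order of transcription. Capitals mark each match to GGGCGG, the GC box bound by SP factors, or to CCGCCC on the other strand.
PIK3R1 start 1, chr5:68215506-68215805, plus strand: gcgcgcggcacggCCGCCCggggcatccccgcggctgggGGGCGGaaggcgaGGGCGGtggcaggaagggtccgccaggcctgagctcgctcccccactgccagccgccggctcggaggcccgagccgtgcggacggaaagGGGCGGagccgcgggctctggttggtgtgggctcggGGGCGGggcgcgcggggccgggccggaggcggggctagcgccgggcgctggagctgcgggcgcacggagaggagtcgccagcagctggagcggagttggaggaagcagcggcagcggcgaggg
PIK3R1 start 2, chr5:68288269-68288568, plus strand: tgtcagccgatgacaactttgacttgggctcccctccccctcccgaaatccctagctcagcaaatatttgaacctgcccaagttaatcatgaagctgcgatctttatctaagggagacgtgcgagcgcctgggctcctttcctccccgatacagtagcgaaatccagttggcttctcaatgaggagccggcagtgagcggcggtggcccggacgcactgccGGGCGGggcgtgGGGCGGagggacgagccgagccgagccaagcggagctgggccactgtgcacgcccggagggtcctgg
PIK3R1 start 3, chr5:68290414-68290713, plus strand: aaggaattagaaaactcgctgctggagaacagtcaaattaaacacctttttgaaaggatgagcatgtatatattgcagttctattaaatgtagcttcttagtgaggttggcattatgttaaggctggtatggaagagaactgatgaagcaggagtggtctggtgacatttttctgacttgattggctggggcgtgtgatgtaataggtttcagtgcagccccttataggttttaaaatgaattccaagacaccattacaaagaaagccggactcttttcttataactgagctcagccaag
PIK3R1 start 4, chr5:68292327-68292626, plus strand: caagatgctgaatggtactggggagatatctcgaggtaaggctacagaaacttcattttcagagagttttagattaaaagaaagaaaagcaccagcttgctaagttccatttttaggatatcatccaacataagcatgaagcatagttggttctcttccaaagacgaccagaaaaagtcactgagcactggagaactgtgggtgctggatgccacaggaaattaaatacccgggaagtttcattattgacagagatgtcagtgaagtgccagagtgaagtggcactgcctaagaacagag

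The windows differed in composition. The GC content was 80.0% at start 1, 62.3% at start 2, 40.0% at start 3 and 42.3% at start 4. The GC box had 5 matches at start 1, 2 at start 2 and 0 at starts 3 and 4, and 45.0% of 35116 RefSeq promoter windows of the same length held at least 1. The forkhead motif TGTTTAC, searched on both strands, had 0 matches in the 4 windows and was present in 3.42% of all windows. These are descriptions of the letters and do not show binding.

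PIK3R1 (ENSG00000145675, GRCh38 chromosome 5, 68215720 to 68301821, plus strand) stood at 60.8 and 91.5 CPM in HER2 L755S 1 and 2, against 34.0 and 47.0 CPM in HER2 WT 1 and 2. Both HER2 L755S libraries lay above both HER2 WT libraries. HER2 L755S cells averaged 76.1 ± 21.7 CPM and HER2 WT cells 40.5 ± 9.21 CPM (SD, n = 2 each), a log2 fold change of 0.91 (SE 0.35, 95% interval 0.14 to 1.68). It did not pass the threshold in this fit, which has no term for the library number (edgeR, Benjamini-Hochberg adjusted p = 0.33). With such a term PIK3R1 was called higher (edgeR adjusted p = 0.00401), among 725 genes called higher of 16538 tested. Pairing of same-numbered libraries was not established. The log2 fold change was 0.58 without HER2 L755S 2. The difference was 0.84 in pair 1 and 0.96 in pair 2. The median log2 fold change of tested genes on chromosome 5 was 0.07. In bulk RNA, fewer cells with a transcript and less of it per cell cannot be told apart.

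The mean transcript length of PIK3R1, which RSEM weights by the estimated abundance of each transcript, was also outside the HER2 WT values. It was 4546 and 3816 bases in HER2 L755S 1 and 2, against 4827 and 4871 bases in HER2 WT 1 and 2. Of the 16 PIK3R1 transcripts in the deposited tables, the longest has 7011 bases in GENCODE 29 and starts within the window of start 1, as does the next longest, with 3891 bases. A mean above 3891 bases therefore requires the longest transcript, whose share can be bounded from the mean alone. The bounds were 21.0% to 62.7% in HER2 L755S 1 and 0% to 51.7% in HER2 L755S 2, against 29.99% to 67.0% in HER2 WT 1 and 31.4% to 67.7% in HER2 WT 2. These ranges overlap, so a difference in start use was not shown. Over the 29 component genes with more than 1 transcript, 6 were shorter and 7 longer in both HER2 L755S libraries than in both HER2 WT libraries, against 13.5% and 16.2% of all such tested genes.

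The other regulatory subunit genes, PIK3R2 for p85-beta and PIK3R3 for p55-gamma, were more abundant per length than PIK3R1. PIK3R2 stood at 171 and 144 CPM in HER2 L755S 1 and 2, against 146 and 87.5 CPM in HER2 WT 1 and 2. The lines overlapped, and the log2 fold change was 0.43 (SE 0.34, pairs 0.23 and 0.72, edgeR adjusted p = 0.865), or 0.12 without HER2 WT 2 and 0.84 without HER2 WT 1. PIK3R3 stood at 117 and 152 CPM in HER2 L755S, against 118 and 147 CPM in HER2 WT libraries, a log2 fold change of 0.02 (SE 0.31, 95% interval -0.66 to 0.71). Its values followed the library number rather than the line. Of the summed TPM of the regulatory subunit genes, PIK3R1 took 16.5% and 26.8% in HER2 L755S 1 and 2, against 10.3% and 15.9% in HER2 WT 1 and 2. The lines did not overlap in this share, but 16.5% in HER2 L755S 1 and 15.9% in HER2 WT 2 were close. TPM uses the estimated transcript length, which for PIK3R1 was itself lower in both HER2 L755S libraries. The separation therefore rests on those length estimates and is given as a description, with no test.

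Of the catalytic p110 subunit genes, PIK3CB, which encodes p110-beta, was the most abundant in each of the 4 libraries. In TPM (a level scaled by transcript length and library total) it took 80.5% and 69.7% of the summed level of PIK3CA, PIK3CB and PIK3CD in HER2 L755S 1 and 2, against 73.4% and 60.8% in HER2 WT 1 and 2. PIK3CD, the p110-delta gene best known from leukocytes, took 0.813% to 2.15% of that sum and had 24 to 65 counts a library. PIK3CA, which encodes the p110-alpha subunit that acts downstream of receptor kinases, stood at 20.2 and 37.9 CPM in HER2 L755S 1 and 2, against 28.3 and 52.2 CPM in HER2 WT 1 and 2. Its log2 fold change was -0.47 (SE 0.42, pairs -0.48 and -0.46, adjusted p = 0.902), and the lines overlapped because both number 2 libraries were higher than the number 1 library of their line. PIK3CB had a log2 fold change of -0.07 (pairs 0.14 and -0.27).

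The summed level of the regulatory subunit genes exceeded that of the catalytic ones in all 4 libraries. PIK3R1, PIK3R2 and PIK3R3 together had 110 and 95.6 TPM in HER2 L755S 1 and 2, against 94.3 and 80.6 TPM in HER2 WT 1 and 2. The catalytic genes had 26.1 and 22.4 TPM in HER2 L755S, against 28.2 and 36.9 TPM in HER2 WT libraries. The ratio of the sums, which was chosen after its values were seen, was 4.21 and 4.27 in HER2 L755S and 3.34 and 2.18 in HER2 WT libraries, a mean of 4.24 ± 0.0454 in HER2 L755S against 2.76 ± 0.82 in HER2 WT cells (SD, n = 2 each). The lines did not overlap in this ratio, but an exact permutation test of 2 against 2 libraries cannot give a p below 0.33, and the difference of 1.48 became 0.897 without HER2 WT 2. PIK3R2 transcripts averaged 65.3% GC and those of PIK3CA and PIK3CB 41.1% and 41.2%, and the part of GC content in the ratio was not tested.

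**Figure D3:**
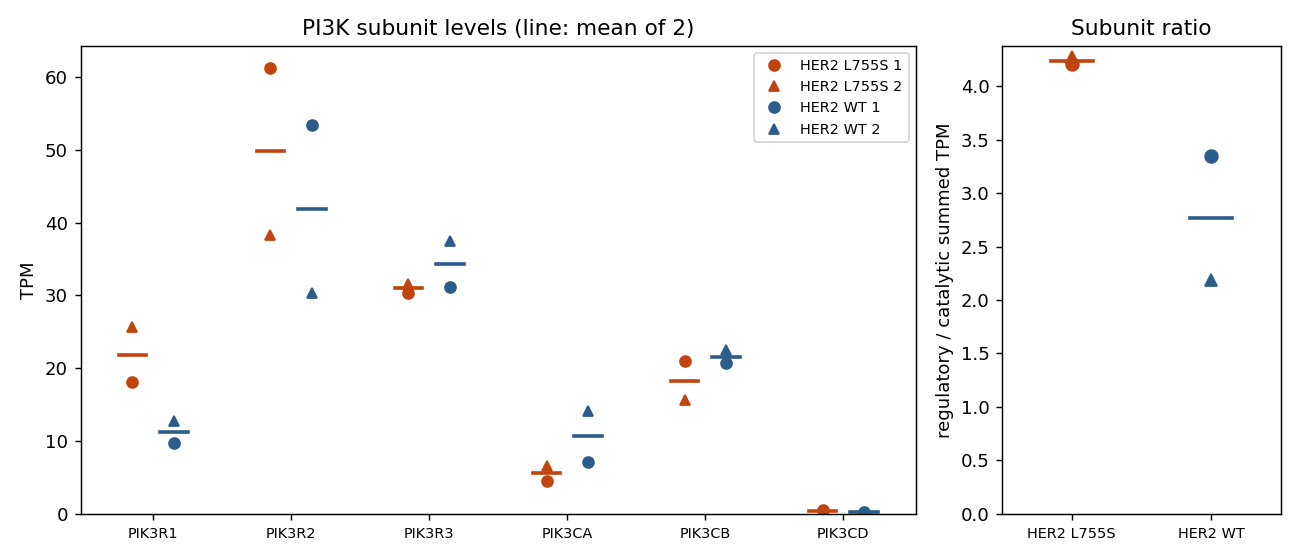
Left, TPM of the regulatory and catalytic PI3K subunit genes in HER2 L755S (orange) and HER2 WT (blue) libraries, with circles for number 1, triangles for number 2 and a line at the mean of 2. Right, the ratio of the regulatory to the catalytic sum, at 4.21 and 4.27 in HER2 L755S and 3.34 and 2.18 in HER2 WT libraries.

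INPP4B, a phosphatase that removes the lipid signal made by PI3-kinase, had the largest differences between libraries of the same line among the 30 genes. It stood at 8.14 and 21.7 CPM in HER2 L755S 1 and 2, against 10.97 and 39.1 CPM in HER2 WT 1 and 2. Number 2 was higher than number 1 by 1.41 in HER2 L755S and 1.83 in HER2 WT libraries on the log2 scale, which is more than the difference between the lines of -0.75 (SE 0.58, pairs -0.43 and -0.85, edgeR adjusted p = 0.865). Its interval, -2.03 to 0.53, was the widest of the 30 genes.

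Of the AKT kinase genes AKT1 and AKT2, AKT1 had the higher transcript level. It stood at 364 and 279 CPM in HER2 L755S 1 and 2, against 334 and 271 CPM in HER2 WT 1 and 2, a log2 fold change of 0.09 (SE 0.31, 95% interval -0.58 to 0.76). AKT1 took 71.3% and 71.9% of the summed TPM of AKT1 and AKT2 in HER2 L755S libraries, against 70.0% and 70.5% in HER2 WT libraries. These shares did not overlap, and their means differed by 1.32 points, or by 2.90 points with 1 fixed length per gene. AKT2 had a log2 fold change of -0.10 and PDPK1, the kinase that phosphorylates AKT, 0.05, with pairs of opposite sign for PDPK1 (0.32 and -0.18).

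Among mTOR genes, MTOR itself stood at 99.97 and 100.3 CPM in HER2 L755S 1 and 2, against 108 and 149.5 CPM in HER2 WT 1 and 2. Both HER2 L755S libraries lay below both HER2 WT libraries, with a log2 difference of -0.11 in pair 1 and -0.58 in pair 2 (log2 fold change -0.36, SE 0.31, edgeR adjusted p = 0.898). The log2 fold change was -0.096 without HER2 WT 2 and -0.58 without HER2 WT 1. MTOR lies on chromosome 1, where the median log2 fold change of tested genes was -0.19. TSC2, whose product with that of TSC1 inhibits mTORC1, stood at 145 and 85.2 CPM in HER2 L755S libraries and at 181 and 134 CPM in HER2 WT libraries (log2 fold change -0.45, SE 0.35, pairs -0.32 and -0.65). The lines overlapped in TSC2, since HER2 WT 2 was below HER2 L755S 1. Its log2 fold change was -0.12 without HER2 L755S 2, -0.22 without HER2 WT 1 and -0.89 without HER2 L755S 1. TSC1 had -0.11, and the mTORC1 substrate kinase gene RPS6KB1 had 0.09, with 0.09 and 0.10 in the pairs.

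RPTOR and RICTOR, which encode the scaffolds that define mTORC1 and mTORC2, differed in opposite directions between the numbers. RPTOR took 72.5% and 47.3% of the summed TPM of the pair of genes in HER2 L755S 1 and 2, against 68.4% and 46.0% in HER2 WT 1 and 2. RICTOR thus had the larger share in both number 2 libraries. The log2 fold change between the lines was 0.13 for RPTOR (SE 0.35) and 0.07 for RICTOR (SE 0.45).

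In the RAS-MAPK arm, the adaptor gene GRB2 was the most abundant of the 30 genes by CPM. It stood at 543 and 482 CPM in HER2 L755S 1 and 2, against 464 and 478 CPM in HER2 WT 1 and 2. The lines did not overlap, but HER2 L755S 2 exceeded HER2 WT 2 by 0.01 on the log2 scale (log2 fold change 0.12, SE 0.29, pairs 0.23 and 0.01). In TPM the GRB2 values overlapped, at 312 and 199 in HER2 L755S and 227 and 351 in HER2 WT libraries, and its mean transcript length ran from 1947 to 2925 bases over the 4 libraries. SHC1 had 40.7 and 40.0 CPM in HER2 L755S and 43.7 and 40.2 CPM in HER2 WT libraries. PTPN11, a phosphatase that promotes RAS signalling downstream of receptors, had a log2 fold change of 0.11, with 0.34 and -0.06 in the pairs.

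Neither exchange factor gene passed the test, and the difference between their fold changes was not tested. SOS1 stood at 22.3 and 28.8 CPM in HER2 L755S 1 and 2, against 27.9 and 46.9 CPM in HER2 WT 1 and 2, a log2 fold change of -0.55 (SE 0.37, pairs -0.32 and -0.70, edgeR adjusted p = 0.795). It was -0.11 without HER2 WT 2 and -0.88 without HER2 WT 1. SOS2 had a log2 fold change of 0.11 (SE 0.33, pairs 0.14 and 0.09). Of their summed TPM, SOS1 took 24.3% and 29.6% in HER2 L755S 1 and 2, against 40.9% and 42.7% in HER2 WT 1 and 2, with no overlap. The estimated mean transcript length of SOS1 also differed between the lines without overlap, at 8068 and 6344 bases in HER2 L755S and 5236 and 6152 bases in HER2 WT libraries. With 1 fixed length per gene the difference was -9.71 points in place of -14.9. The share is given as a description, with no test.

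HRAS exceeded NRAS per length in every library, at 90.9% to 93.9% of their summed TPM in HER2 L755S and 89.3% to 94.6% in HER2 WT libraries. HRAS stood at 101 and 87.6 CPM in HER2 L755S 1 and 2, against 160 and 89.7 CPM in HER2 WT 1 and 2, so that HER2 WT 1 stood apart from the other libraries. Its log2 fold change was -0.40 (SE 0.35), -0.66 in pair 1 and -0.04 in pair 2, and 0.07 without HER2 WT 1. HRAS lies on chromosome 11, where the median log2 fold change of tested genes was -0.27. NRAS stood at 47.3 and 63.2 CPM in HER2 L755S libraries and at 60.9 and 76.2 CPM in HER2 WT libraries (log2 fold change -0.31, SE 0.33, pairs -0.36 and -0.27).

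In the kinase cascade, ARAF, BRAF and MAP2K2 followed the number more than the line. ARAF stood at 65.3 and 27.6 CPM in HER2 L755S 1 and 2, against 65.5 and 37.9 CPM in HER2 WT 1 and 2. BRAF ran the other way, at 21.3 and 37.2 CPM in HER2 L755S and 28.3 and 49.0 CPM in HER2 WT libraries. ARAF therefore took 88.9% and 68.3% of their summed TPM in HER2 L755S 1 and 2, against 84.3% and 66.8% in HER2 WT 1 and 2. BRAF had a log2 fold change of -0.40 (SE 0.40), alike in the pairs at -0.41 and -0.40, and did not pass (edgeR adjusted p = 0.933). MAP2K2, a MEK gene, took 77.3% to 81.4% of the summed TPM of MAP2K1 and MAP2K2 in HER2 L755S and 74.3% to 84.2% in HER2 WT libraries. The log2 fold changes were 0.13 for MAP2K1, 0.11 for MAP2K2 and -0.15 for MAPK3, the gene of the ERK1 kinase.

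The genes of RAS GTPase activators, which switch RAS off, overlapped between the lines. NF1, for neurofibromin, stood at 105 and 137 CPM in HER2 L755S 1 and 2, against 96.6 and 180 CPM in HER2 WT 1 and 2 (log2 fold change -0.19, SE 0.36, pairs 0.13 and -0.40). RASA1 had a log2 fold change of -0.10 (SE 0.33, pairs 0.05 and -0.23).

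**Figure D4:**
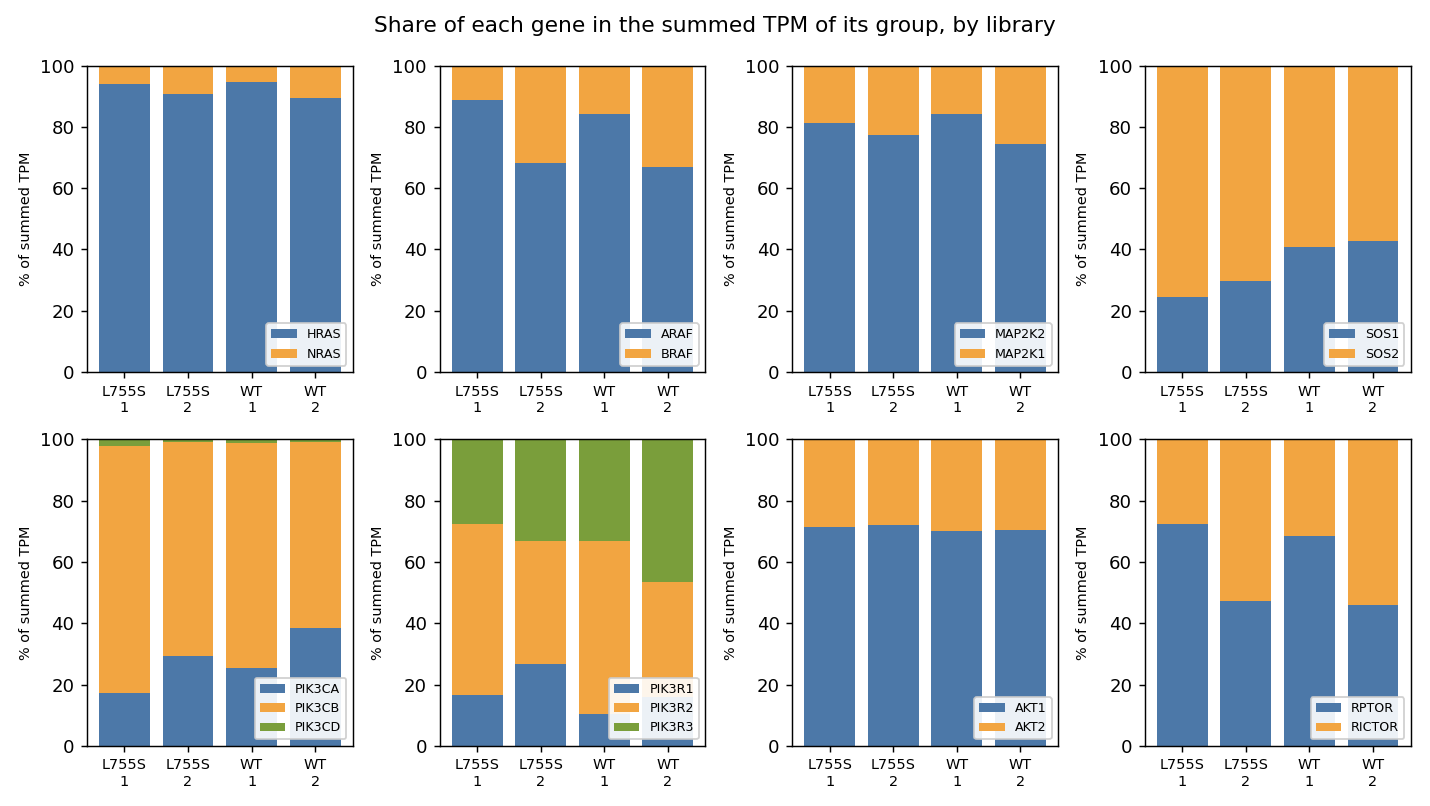
Percent of the summed TPM that each gene took within its group of related component genes, in HER2 L755S 1 and 2 and HER2 WT 1 and 2; each bar adds to 100%, and RPTOR and RICTOR are grouped as scaffolds. The SOS1 share is lower in both HER2 L755S libraries (24.3% and 29.6%) than in both HER2 WT libraries (40.9% and 42.7%), while the ARAF and RPTOR shares are lower in the number 2 libraries of both lines.

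Ordered by mean TPM over the 4 libraries, the components spanned 0.342 for PIK3CD to 272 for GRB2. After GRB2 came HRAS at 224, AKT1 at 183 and MAP2K2 at 107 TPM, and the ranges of GRB2, HRAS and AKT1 over the libraries overlapped. MAPK3, AKT2 and TSC2 averaged 75.5, 75.2 and 72.5 TPM and could not be ordered. At the low end, SOS1, TSC1, RICTOR and INPP4B averaged 6.44, 6.34, 5.93 and 4.52 TPM with overlapping ranges. PIK3CD lay below every other component in each library. In CPM 29 of 30 genes were above the median of the tested genes.

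In their medians over the components, libraries of the same line differed more than libraries of the same number did between the lines. The median size of the log2 difference between number 2 and number 1 was 0.38 in HER2 L755S and 0.44 in HER2 WT libraries, against 0.20 between the lines in pair 1 and 0.27 in pair 2. Over all tested genes the difference between the numbers had a median size of 0.44 in HER2 L755S and 0.43 in HER2 WT libraries. Number 2 was higher in both lines for 14 of 30 genes, where 34.7% of all tested genes were, and lower in both for 12, where 37.8% were. RICTOR was higher in number 2 by 1.00 in HER2 L755S and 1.17 in HER2 WT libraries on the log2 scale, and ARAF was lower, at -1.24 and -0.79.

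The direction between the numbers went with the base composition of the transcripts. RICTOR, NRAS and SOS1 transcripts averaged 38.2%, 38.4% and 39.5% GC and were higher in number 2 in both lines, while those of PIK3R2, HRAS and MAP2K2 averaged 65.3%, 64.8% and 62.8% GC and were lower in both. Over the 30 genes, Pearson's r between GC content and the mean log2 difference of number 2 over number 1 was -0.83 (Spearman's rho -0.84), and over 16492 tested genes it was -0.61 (rho -0.72). With transcript length r was 0.68 over the 30 genes and 0.17 over all tested genes. These correlations are across genes that share the same 4 libraries, so genes are not independent replicates, and GC content and length were themselves correlated over the 30 genes (r = -0.68). The log2 fold change between the lines had r = 0.17 with GC content over the 30 genes. The labels do not say what the number stands for, and its part in the differences between the lines was not tested beyond the values within each pair.

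**Figure D5:**
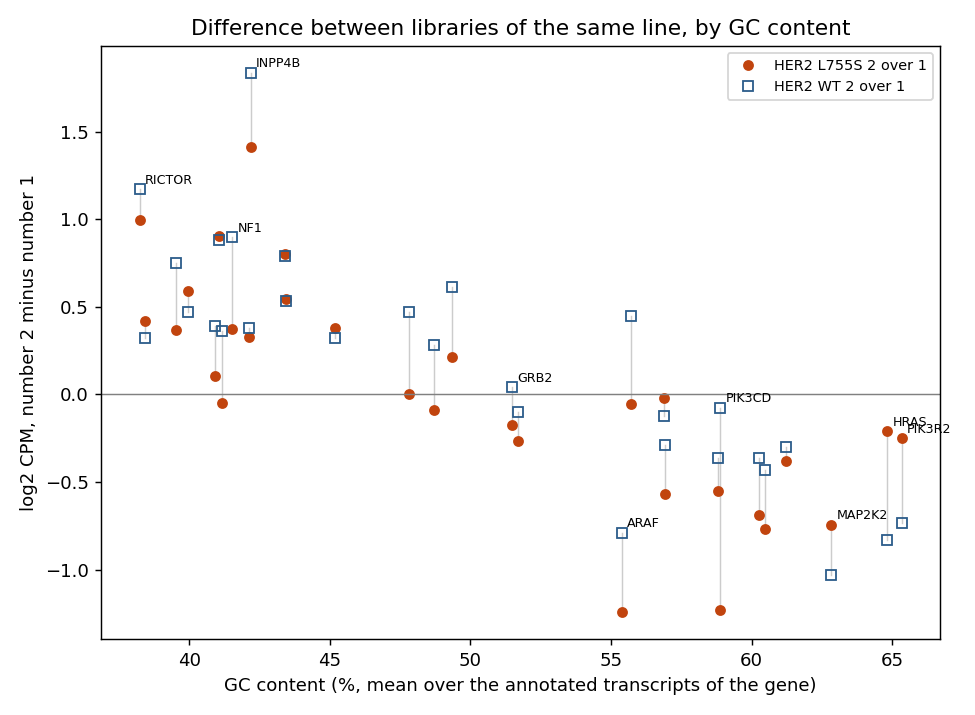
Log2 CPM of number 2 minus number 1 in HER2 L755S (orange circles) and HER2 WT libraries (blue squares) against the mean GC content of the annotated transcripts, for the 30 component genes; a grey line joins the values of a gene. Genes of low GC content lie mostly above 0 and genes of high GC content mostly below 0 in both lines, with INPP4B highest at 1.41 and 1.83.

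Of 110 other genes of the same pathways, 101 were tested, 1 was called higher and 1 lower in HER2 L755S cells, near the 0.738% and 0.949% of all tested genes, and the median log2 fold change was -0.03. The gene called higher was RRAGD, a RAG GTPase that recruits mTORC1 to lysosomes when amino acids are present. It stood at 4.99 and 3.04 CPM in HER2 L755S 1 and 2, against 0.525 and 0.448 CPM in HER2 WT 1 and 2, a log2 fold change of 3.03 (SE 0.54, pairs 3.21 and 2.72, edgeR adjusted p = 0.0175, and 8.23e-06 to 0.0273 over the alternatives). The gene called lower was SGK3, a kinase related to AKT, at 3.38 and 4.67 CPM in HER2 L755S and 12.6 and 18.7 CPM in HER2 WT libraries. Its log2 fold change was -1.96 (SE 0.40, edgeR adjusted p = 0.0356), and it lies on chromosome 8 with a median of -0.38 over tested genes. SGK3 lost its call when HER2 L755S 1 or HER2 WT 2 was left out. Adding a term for the library number gave SGK3 an edgeR adjusted p of 5.78e-05, but pairing was not established. Other alternatives on all 4 libraries gave SGK3 0.00047 (DESeq2) to 0.0426 (limma-voom).

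Of the 29 tested RAS regulators, adaptors and scaffolds, 0 were called by edgeR at its main settings, with GAB2 just above the threshold. An unadjusted p under 0.05 was found for 5, as for 10.5% of all tested genes. GAB2, an adaptor that links receptors to PI3-kinase and PTPN11, had the smallest p. It stood at 38.8 and 26.2 CPM in HER2 L755S 1 and 2, against 87.7 and 101 CPM in HER2 WT 1 and 2 (log2 fold change -1.54, SE 0.34, pairs -1.18 and -1.94, edgeR adjusted p = 0.0508). Adding a term for the library number gave GAB2 an edgeR adjusted p of 0.000106, but pairing was not established. Other alternatives on all 4 libraries gave GAB2 0.00127 (DESeq2) to 0.0573 (edgeR, no scaling). Of these, only the fit with no scaling did not call it. GAB2 lies on chromosome 11, with its median of -0.27. The scaffold gene CNKSR1 had a log2 fold change of -1.15 (SE 0.36, edgeR adjusted p = 0.177). With a term for the library number edgeR gave CNKSR1 an adjusted p of 0.000604, but pairing was not established. The other alternatives on all 4 libraries gave 0.0647 to 0.181.

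Of the 8 ERK effector kinases, 0 were called by edgeR and 1 had an unadjusted p under 0.05, against the same 10.5% of all tested genes. The RSK kinase gene RPS6KA2 had a log2 fold change of -1.12 (SE 0.39, edgeR adjusted p = 0.239). With a term for the library number edgeR gave RPS6KA2 an adjusted p of 0.00865, but pairing was not established. The other alternatives on all 4 libraries gave 0.152 to 0.245. MKNK2, whose product phosphorylates the translation factor EIF4E, had a log2 fold change of 0.49 (SE 0.32, edgeR adjusted p = 0.775). Of the 21 tested phosphoinositide and AKT regulators, SGK3 was the 1 called, and the related kinase gene SGK2 stood at 7.35 and 7.56 CPM in HER2 L755S, against 2.66 and 1.89 CPM in HER2 WT libraries (log2 fold change 1.71, edgeR adjusted p = 0.0751). Adding a term for the library number gave SGK2 an edgeR adjusted p of 0.00185, but pairing was not established. Other alternatives on all 4 libraries gave SGK2 0.00871 (DESeq2) to 0.0987 (edgeR, no scaling). Of the 43 mTOR genes, RRAGD was the 1 called. DDIT4, an inhibitor of mTORC1 induced by stress, stood at 210 and 113 CPM in HER2 L755S 1 and 2, against 70.1 and 41.5 CPM in HER2 WT 1 and 2, with no overlap (log2 fold change 1.53, SE 0.40, pairs 1.58 and 1.44, edgeR adjusted p = 0.0895). Adding a term for the library number gave DDIT4 an edgeR adjusted p of 4.16e-05, but pairing was not established. Other alternatives on all 4 libraries gave DDIT4 0.00139 (edgeR, no filter) to 0.132 (edgeR, no scaling).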

How the data were processed

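RNA was measured in 4 libraries, 2 of HER2 L755S and 2 of HER2 WT cells, grouped by sample title. Per the labels' protocols, 250 ng of total RNA went into each poly(A)-selected library. Per the file headers, the deposited tables are RSEM output made by the authors: an expected count per gene (an estimate, whole or fractional), TPM and FPKM from the same estimates, and transcript length in bases weighted by abundance. FPKM was deposited but not used. STAR, edgeR and the build GRCh38 are named in the submitters' processing notes. Versions, annotation release and strand setting are not given in the sources used here. Deposited tables of the number 2 libraries carry the word merged in their names, and what was merged is not stated.

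Expected counts were rounded, filtered with filterByExpr, scaled with TMM (factors 0.937 to 1.04) and tested in R 4.3.3 by quasi-likelihood with edgeR 4.0.16 (two-sided, no term for the number), with Benjamini-Hochberg adjustment over 16538 genes at 0.05. Pair differences use a prior count of 0.5. DESeq2 1.42.0 and limma 3.58.1 were alternatives, among other scalings, filters and left-out libraries. The test was checked on simulated counts for 16538 genes. Of its calls there, 8 (6.02%) were false. Expected counts were not whole in at least 1 library for 16 of 30 components, whose reads may be shared with copies such as pseudogenes, and 21 overlap a gene on the opposite strand, so those values are uncertain. Positions, transcript lengths and GC content are from GENCODE 29, in which 97.6% of 35949 single-transcript genes had the deposited length. Promoter windows are from RefSeq, in which 29 of 30 components were found. The components, pathway lists and tests were chosen with earlier results of these data known. Named genes are all components, and of the other pathway genes those called and the 2 of smallest p per list. In the closing section, the genes named were chosen after their values were seen. Other paralogs of these families were not analysed here.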

Additional observations from a re-analysis of the deposited data

How the results depend on the processing

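Of the 30 components, 0 were called under every alternative run except the fit with the replicate number as a block, in which PIK3R1 was called higher (log2 fold change 0.90, adjusted p = 0.00401), a count of 1, and the next was INPP4B (adjusted p = 0.0582). Same-numbered libraries deviated together (r = 0.43 over 16538 genes), but with 2 pairs and no label for the number, pairing was not established. The block called 725 genes higher and 1018 lower over all tested genes, and 8 and 9 other pathway genes. DESeq2 called 276 and 309 (4 and 2 in the pathways), no filter 328 and 431 (6 and 3), and an adjusted p of 0.01 left 49 and 49 (0 and 0). Leaving out 1 library gave 160 to 220 higher and 184 to 328 lower genes, with 1 to 3 and 0 to 3 in the pathways. The count of higher genes moved by over 1.5 times without HER2 L755S 1 (214), HER2 L755S 2 (220) or HER2 WT 1 (192), and that of lower genes without HER2 L755S 1 (328). Lower pathway genes numbered 2, SGK3 and GAB2, with DESeq2 size factors, limma-voom, the 50-count filter or, added after the data were seen, without mitochondrial genes. The median of the components ran from -0.14 to 0.08 when a library was left out, with the positive value without HER2 WT 2.

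Signs of log2 fold changes turned when a library was left out for 23 components, none of them called, with these ranges: HRAS (-0.75 to 0.069), ARAF (-0.91 to 0.33), BRAF (-0.86 to 0.068), MAP2K1 (-0.0078 to 0.26), MAP2K2 (-0.31 to 0.71), MAPK3 (-0.53 to 0.15), SOS2 (-0.072 to 0.33), SHC1 (-0.10 to 0.00056), PTPN11 (-0.17 to 0.47), NF1 (-0.58 to 0.34), RASA1 (-0.29 to 0.12), PIK3CA (-0.99 to 0.058), PIK3CB (-0.25 to 0.13), PIK3CD (-0.36 to 0.88), PIK3R3 (-0.18 to 0.21), INPP4B (-1.62 to 0.47), PDPK1 (-0.16 to 0.30), AKT1 (-0.11 to 0.26), AKT2 (-0.41 to 0.14), TSC1 (-0.25 to 0.049), RPTOR (-0.18 to 0.38), RICTOR (-0.52 to 0.79) and RPS6KB1 (-0.21 to 0.40). The sign held for PIK3R1 (0.58 to 1.18), PIK3R2 (0.12 to 0.84), GRB2 (0.031 to 0.20), NRAS (-0.54 to -0.12), SOS1 (-0.88 to -0.11), TSC2 (-0.89 to -0.12) and MTOR (-0.58 to -0.096). Without scaling PIK3R3, PDPK1 and RICTOR had -0.053, -0.019 and -0.013, and after subtracting the chromosome median SHC1 had 0.14 and RICTOR -0.0016. Between the lines the SOS1 share differed by -9.71 points with fixed lengths and -10.2 without lengths, and the AKT1 share by 2.90 and 2.65. The other shares and the subunit ratio moved by less than the spread between libraries. PIK3CD had the fewest counts, 24 to 65 a library.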

Other observations

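Of the 101 other pathway genes tested, 20 were higher and 20 lower in both HER2 L755S libraries than in both HER2 WT libraries, where 16.9% and 19.3% of all tested genes were. The genes named next were chosen after their values were seen. None of them passed the edgeR test. All but SESN2 had no overlap between the lines. Among fits on all 4 libraries, SESN1, SESN3 and SHC2 were called with no filter and with the replicate number as a block. SESN1 was also called by DESeq2 (adjusted p = 0.0289). RPS6KB2 and PIK3IP1 were called only with that block, for which pairing was not established. It called 725 genes higher and 1018 lower among 16538 tested genes. SESN1, a sestrin gene whose product restrains mTORC1 when amino acids are short, stood at 34.3 and 54.6 CPM in HER2 L755S 1 and 2, against 17.4 and 20.1 CPM in HER2 WT 1 and 2 (log2 fold change 1.24, edgeR adjusted p = 0.135, 0.000657 with the block, and 0.0289 to 0.163 over the other alternatives on all 4 libraries). SESN3 stood at 30.7 and 70.3 CPM in HER2 L755S and 16.7 and 24.9 CPM in HER2 WT libraries (log2 fold change 1.28, edgeR adjusted p = 0.222, 0.000952 with the block, and 0.036 to 0.289 over the other alternatives on all 4 libraries). The remaining sestrin gene, SESN2, overlapped between the lines, at 67.0 and 34.1 CPM in HER2 L755S and 42.1 and 25.4 CPM in HER2 WT libraries (log2 fold change 0.58, edgeR adjusted p = 0.824).

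RPS6KB2, a paralog of RPS6KB1 on chromosome 11, stood at 235 and 168 CPM in HER2 L755S and 472 and 292 CPM in HER2 WT libraries (log2 fold change -0.93, edgeR adjusted p = 0.292, 0.00541 with the block, and 0.145 to 0.298 over the other alternatives on all 4 libraries). SHC2, a paralog of SHC1, stood at 56.5 and 26.8 CPM in HER2 L755S and 25.6 and 8.505 CPM in HER2 WT libraries (log2 fold change 1.29, edgeR adjusted p = 0.368, 0.000234 with the block, and 0.0357 to 0.446 over the other alternatives on all 4 libraries). PIK3IP1, which encodes an inhibitor of PI3-kinase, stood at 18.0 and 14.96 CPM in HER2 L755S and 31.7 and 24.3 CPM in HER2 WT libraries (log2 fold change -0.77, edgeR adjusted p = 0.455, 0.0194 with the block, and 0.405 to 0.593 over the other alternatives on all 4 libraries).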
